A study of Mus musculus with 6 samples.

Results

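Long intergenic noncoding RNAs (lincRNAs) were examined in mouse bone-marrow-derived macrophages as the group of 106 autosomal genes annotated as lincRNA whose mean over 5 libraries was at least 1 FPKM, with the nuclear RNAs Malat1 and Neat1 left out. They were chosen by annotation and by that mean level over siCXCR4 and siNC together, so that the level is a description and not a finding. They are 106 of 54532 genes in the tables and 106 of 5559 lincRNA entries. In siCXCR4, macrophages of C57BL/6 mice had been given an siRNA, a short RNA that leads to the decay of a matching messenger RNA, directed at Cxcr4; in siNC they had been given a negative-control siRNA. Both groups carried no other genetic change that the labels name, and both had received lipopolysaccharide (LPS) at 100 ng/ml for 12 hours, so no unstimulated cells are part of the comparison. The series title speaks of monocyte-derived cells and of ablation, whereas the sample labels give bone-marrow-derived cells and siRNA; the labels are followed here. The value columns of the tables are headed with mko in siCXCR4 and wt in siNC, letters whose meaning is not explained. Nothing in the labels says whether replicates were separate animals or cultures. The p-values therefore speak of the spread among these samples alone, which may be technical.

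A lincRNA is a spliced or unspliced transcript, made by RNA polymerase II, that lies between protein-coding genes and is not annotated as coding. Some lincRNAs act in the nucleus on genes close to them, some are precursors from which microRNAs (miRNAs) or small nucleolar RNAs (snoRNAs) are cut, and for many no function is known. In mouse macrophages LPS is known to induce several, among them the miR-155 precursor, the lincRNA-Cox2 gene beside Ptgs2, and AW112010. FPKM counts reads or fragments per kilobase and per library total; it is a level per length, so that levels of different genes can be set side by side.

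The sample labelled siNC replicate 3 held the same reads as siNC replicate 2, so the pair, which differed by less than sampling noise, was counted as 1 sample; 3 siCXCR4 and 2 siNC libraries remained. Of reads in genes, the siCXCR4 libraries had 21780840, 19323985 and 18890751, and the siNC libraries 21443370 and 19292520. The siRNA target Cxcr4, the CXCL12 receptor, had 31.1, 36.2 and 32.7 FPKM in the siCXCR4 libraries, against 41.3 and 42.1 FPKM in the siNC libraries. Its siCXCR4 values all lay below its siNC values (exact two-sided permutation test p = 0.1, the smallest that 3 libraries against 2 allow). Its log2 fold change was -0.32 by limma, and its adjusted p was 0.457 by limma, 0.0637 by edgeR and 0.0511 by DESeq2. All 8 macrophage markers were above 1 FPKM, with a summed level of 4149 to 4513 FPKM in siCXCR4 and 4287 to 4525 FPKM in siNC. Of 5 neutrophil markers 1 was above 1 FPKM, S100a8, and the summed level of the list was 10.8 to 13.4 FPKM in siCXCR4 and 15.6 to 18.3 FPKM in siNC, with Ly6g, Mpo, Elane and Cxcr2 each under 0.04 FPKM on average. In bulk RNA, fewer cells of a type and less RNA per cell cannot be told apart, and the part of that difference in the results below was not tested. T cell, B cell, fibroblast, erythroid and mast cell lists had 0 markers above 1 FPKM, and the dendritic cell list had 1 of 4, Ccr7.

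Several members are precursors of small RNAs, and the mature miRNAs that 5 of them hold on the same strand are what ties these transcripts to known regulation. For 4 hosts 1 arm of each miRNA is shown from 5′ to 3′ as RefSeq gives it for GRCm38.p6, with the seed, bases 2 to 8, in capitals:
Mir155hg, miR-155-5p: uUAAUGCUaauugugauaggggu
Mir142hg, miR-142a-3p: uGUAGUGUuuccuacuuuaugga
4833445I07Rik, miR-191-5p: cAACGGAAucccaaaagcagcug
4833445I07Rik, miR-425-5p: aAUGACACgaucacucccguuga
E130102H24Rik, miR-101a-3p: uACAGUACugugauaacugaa
The 5 seeds differ from each other. The fifth host, Snhg20, overlaps Mir6516. The libraries measure the long host transcript and not the mature miRNA, and the entries of Mir155, Mir142, Mir191, Mir425 and Mir101a themselves were listed at 0 reads.

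Most members were scarce. The median member had a mean of 2.04 FPKM and 56.7 reads per library, against 7.26 FPKM and 694.3 reads for the 8964 protein-coding genes tested. Of the 106 members, 50 lay between 1 and 2 FPKM, 25 had at least 5 FPKM and 12 had at least 10 FPKM. AW112010 alone made up 48.3% of the summed level of the members. In all, the members held 0.156%, 0.154% and 0.161% of the reads in genes in the siCXCR4 libraries and 0.167% and 0.172% in the siNC libraries. Without AW112010 the shares were 0.117%, 0.115% and 0.124% in siCXCR4, against 0.123% and 0.127% in siNC, and siCXCR4 replicate 3 then lay above siNC replicate 1. Their gene models have a median length of 1182.5 bases, against 1007 bases for the 4807 autosomal lincRNA entries outside the group, of which 1191 had any read. Most were short models of few exons: 8 had a single exon, 36 had 2 and 35 had 3. At the threshold, Gm45181, Gm35028 and AC117662.4 were the last members inside, with means of 1.002, 1.011 and 1.014 FPKM, and Gm14461, Gm16973 and CT030636.1 were the first outside, with 0.994, 0.983 and 0.982 FPKM.

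The most abundant member was AW112010 (ENSMUSG00000075010, minus strand, chr19:11047617-11050566), an inflammation-induced mouse transcript reported to be translated from a noncanonical reading frame. It had 499.7, 506.7 and 482.6 FPKM in the siCXCR4 libraries, against 546.6 and 567.3 FPKM in the siNC libraries, and ranked 61st in mean level among all 9943 genes tested. The 3 siCXCR4 libraries were below the 2 siNC libraries, on 7117 to 9285 reads per library. Its log2 fold change (here and below siCXCR4 minus siNC, computed on log2(FPKM + 1)) was -0.17 (SE 0.0535, 95% interval -0.29 to -0.04; adjusted p = 0.501 by limma). A difference of that size was not called once p was adjusted over all genes. Its nearest protein-coding gene, Ms4a8a, a member of the MS4A family of membrane proteins, lies 16.9 kb away and averaged 0.124 FPKM in siCXCR4 and 0.214 FPKM in siNC.

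Mir155hg (ENSMUSG00000097418, plus strand, chr16:84703167-84715245) is the host of miR-155, which in macrophages represses brakes on inflammatory signalling such as Socs1. It had 31.2, 28.4 and 33.1 FPKM in the siCXCR4 libraries, against 34.1 and 37.7 FPKM in the siNC libraries. The groups did not overlap, although the highest siCXCR4 and the lowest siNC library lay close together. The log2 fold change was -0.21 (SE 0.0777, 95% interval -0.39 to -0.02; adjusted p = 0.512 by limma). The other miRNA hosts named above had intervals that spanned 0. Mir142hg, whose miRNA is made mainly in blood cells, averaged 10.7 ± 1.15 FPKM in siCXCR4 (SD, n = 3) and 10.1 ± 0.454 FPKM in siNC (SD, n = 2). The host of miR-191 and miR-425, 4833445I07Rik, had 1.85 ± 0.409 and 1.89 ± 0.0558 FPKM in siCXCR4 and siNC, and the host of miR-101a, E130102H24Rik, had 2.34 ± 0.528 and 2.86 ± 1.19 FPKM in siCXCR4 and siNC; both were singled out for their miRNAs after their values were seen.

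**Figure D1:**
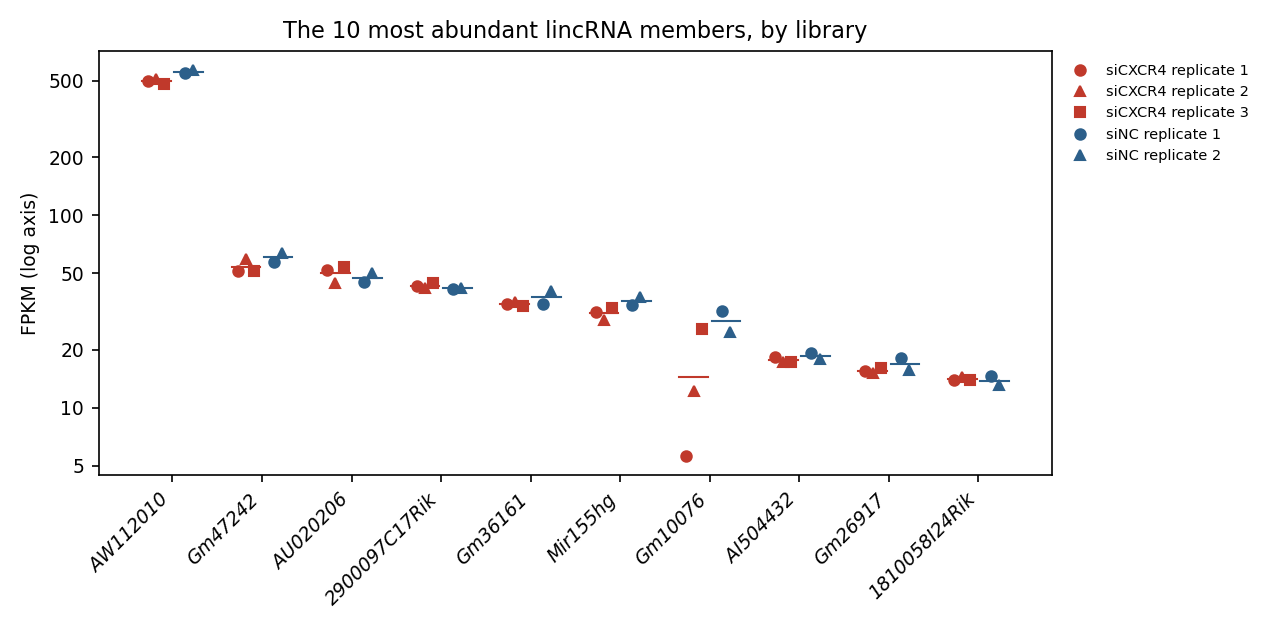
FPKM on a log axis of the 10 most abundant members in each library, with siCXCR4 left of siNC for each gene; horizontal lines are group means. AW112010 lies near 500 FPKM and separates the groups by little, while Gm10076 runs from 5.62 to 25.6 FPKM within siCXCR4.

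The next members by level had groups that overlapped, apart from Mir155hg. Gm47242, at chr19:12539588-12540823, had 51.2, 59.3 and 51.002 FPKM in siCXCR4, against 57.35 and 63.9 FPKM in siNC. AU020206, 14.4 kb from Akap13, a kinase-anchoring protein, had 52.002, 44.5 and 53.6 FPKM in siCXCR4, against 44.97 and 49.8 FPKM in siNC. Gm36161 averaged 34.6 ± 0.864 and 37.5 ± 4.14 FPKM in siCXCR4 and siNC, and AI504432, 1.43 kb from the potassium channel gene Kcna3, averaged 17.7 ± 0.564 and 18.5 ± 0.938 FPKM. The entry 2900097C17Rik, which RefSeq names Norad, a cytoplasmic RNA known to bind Pumilio proteins, was among the steadiest: 42.7, 42.0 and 44.7 FPKM in siCXCR4, against 41.3 and 42.0 FPKM in siNC. The transcript 1810058I24Rik, which RefSeq lists as protein-coding with the synonym Stmp1 and which is known to encode a mitochondrial micropeptide, averaged 14.0 ± 0.303 FPKM in siCXCR4 and 13.8 ± 1.07 FPKM in siNC. Gm26917, at 15.6 ± 0.464 FPKM in siCXCR4 and 16.9 ± 1.75 FPKM in siNC, ends 12 bases before Rn18s-rs5, an 18S ribosomal RNA sequence of chromosome 17 in RefSeq; the lincRNA entries Gm42418, a RefSeq synonym of Rn18s-rs5, and AY036118 next to it were listed at 0 in all libraries.

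Annotation as lincRNA was not shared by all sources. Of the 70 members with a RefSeq record at the same place, 61 were noncoding RNAs there, 7 were protein-coding and 2 were pseudogenes. Among the protein-coding ones are Zfp469, a zinc finger gene of which the entry covers 1 exon, and Gm39469.

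No member passed the test. By limma 0 of 106 members had an adjusted p under 0.05, as did 0 of all 9943 genes (0%), and the smallest adjusted p among members and among all genes was 0.389. At an unadjusted p under 0.05, 12 members were lower in siCXCR4, 11.3% of them, where the background was 3.54% of all genes tested; 0 members were higher, against 5.80% of all genes. On recovered reads, edgeR's quasi-likelihood test gave 0 of 103 members an adjusted p under 0.05, with 0.133% of the 12794 genes it tested called. Unadjusted, edgeR had 9 members lower (8.74%, against 5.27% of those 12794 genes) and 0 higher (against 4.46%). DESeq2 gave 0 members an adjusted p under 0.05, but gave an adjusted p for only 20 of the 106. It called 0.120% of 23311 genes, which were all those with any read. Unadjusted, DESeq2 had 4 members lower (3.77%, against 1.36% of the 23311) and 0 higher (against 1.62%). Many of the 23311 genes lay below the 1 FPKM that every member reached, so these shares do not compare like sets. The members lower by all 3 tools were AW112010, Mir155hg, Gdap10 and Gm28901.

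The members as a whole sat slightly below the other genes. Their median log2 fold change was -0.08 (quartiles -0.19 and 0.03), against 0.01 (quartiles -0.06 and 0.08) for all genes tested, and 71 of 106 members (67.0%) were below 0, against 43.6% of all genes. In 15 members the siCXCR4 values all lay below the siNC values (14.2%, against 9.92% of all genes), and in 3 members they all lay above (2.83%, against 17.9%). The same side was seen at each level: 32 of 50 members between 1 and 2 FPKM, 20 of 31 between 2 and 5 FPKM and 19 of 25 above 5 FPKM were below 0, where protein-coding genes gave 54.3%, 47.9% and 37.1%. Among other noncoding classes, 58.0% of 100 antisense genes and 33 of 44 processed transcripts were below 0, with medians of -0.02 and -0.04, whereas 49.0% of 435 processed pseudogenes were, with a median of 0.01. These counts describe the 5 libraries, and genes in them do not vary independently.

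**Figure D2:**
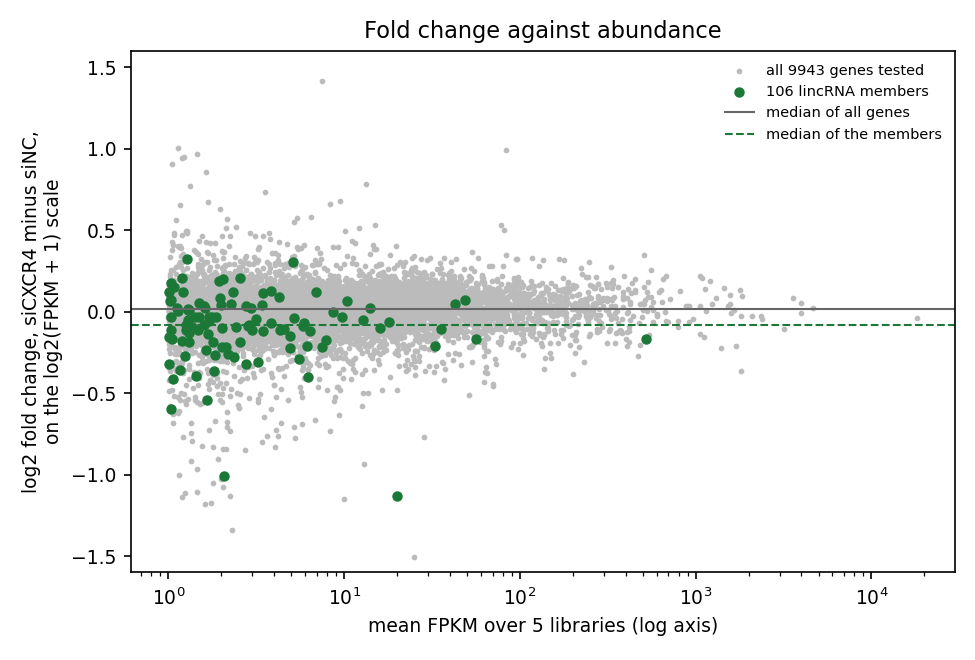
Log2 fold change (siCXCR4 minus siNC, computed on log2(FPKM + 1)) against mean FPKM on a log axis for all genes tested (grey) and the members (green); 3 genes lie beyond the vertical axis. The dashed line at -0.08 is the members' median and the solid line at 0.01 that of all genes, and most members sit at the left, below 10 FPKM, with Gm28901 and Gm10076 near or below -1.

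The shift was spread unevenly over the libraries. Relative to each gene's mean over the 5 libraries, the median member stood at -0.06, -0.03 and -0.003 on the log2 scale in siCXCR4 replicates 1, 2 and 3, and at 0.005 and 0.06 in siNC replicates 1 and 2. The siCXCR4 replicate 3 and siNC replicate 1 libraries were thus close together. The highest value of a member lay in siNC replicate 2 for 36 of 106 members, where 15.2% of all genes tested had theirs. Without siNC replicate 2 the members' median was -0.03, and without siNC replicate 1 it was -0.08. Without siCXCR4 replicates 1, 2 and 3 in turn it was -0.08, -0.07 and -0.08. Reads outside the listed genes made up 3.30e-04%, 0.312% and 1.37% of the FPKM denominator in the siCXCR4 libraries and 2.80% and 2.15% in the siNC libraries, which lowers every FPKM more in siNC. With FPKM rescaled to reads in genes, an alternative chosen after seeing the data, the members' median was -0.10 and that of all genes -0.01.

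**Figure D3:**
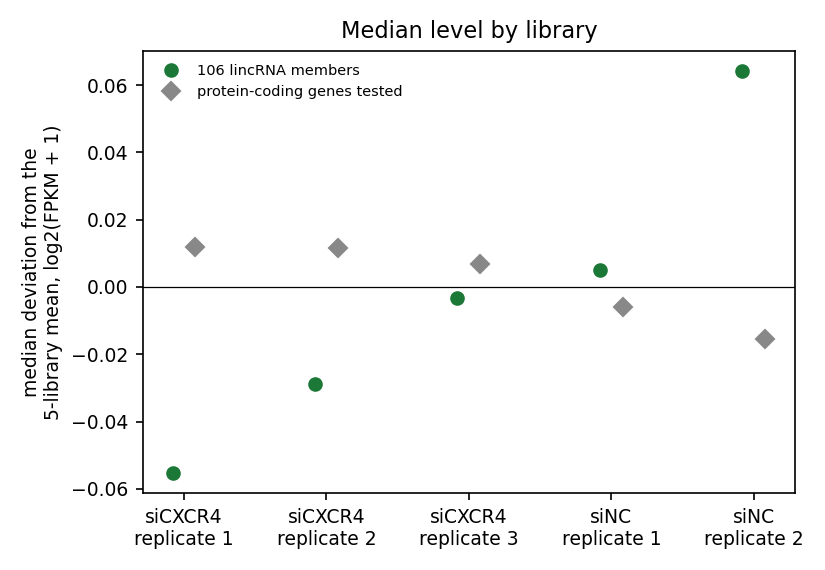
Median deviation of the members (green circles) and of the protein-coding genes tested (grey diamonds) from each gene's own 5-library mean, in log2(FPKM + 1), with siCXCR4 libraries left of siNC libraries. The members' medians run from -0.06 in siCXCR4 replicate 1 to 0.06 in siNC replicate 2, while protein-coding medians stay within 0.02 of 0.

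The member with the lowest p was Gm28901 (ENSMUSG00000100454, minus strand, chr1:97024516-97025565), a predicted gene. It had 1.07, 1.52 and 0.991 FPKM in the siCXCR4 libraries, against 3.35 and 3.42 FPKM in the siNC libraries. These are 11, 14 and 9 reads in siCXCR4, against 35 and 32 reads in siNC. The counts are small, and the groups are far apart relative to them. The log2 fold change was -1.01 (SE 0.113, 95% interval -1.28 to -0.74; adjusted p = 0.389 by limma and 0.106 by edgeR). The log2 fold change was -1.52 by edgeR, by DESeq2 and with a pseudocount of 0.01. Without siCXCR4 replicate 2 its adjusted p by limma was 0.0467, past the threshold, and it was then the 1 gene called among 9943. All of its sequence is shared, and 85.7% of its exon bases lie across from Gm6430, a processed pseudogene. Stretches of at least 95% identity to Hnrnpf, a splicing regulator of the hnRNP family, together cover 100% of it. In all, 7 genes cover at least 50% of it in this way. In the longest stretch, 410 of its 474 bases match the coding sequence of Hnrnpf at 99.5% identity on the opposite strand. A stretch of 60 bases shows this, with Gm28901 written as its reverse complement and the base that differs in capitals:
Gm28901, antisense: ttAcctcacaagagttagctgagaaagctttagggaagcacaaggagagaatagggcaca
Hnrnpf, coding sequence: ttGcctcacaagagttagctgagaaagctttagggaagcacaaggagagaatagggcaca
Hnrnpf itself had 57.2, 56.8 and 55.1 FPKM in siCXCR4, against 51.1 and 52.1 FPKM in siNC, the opposite direction, with an adjusted p of 0.512 by limma. Gm6430 had 2, 8 and 7 reads in siCXCR4, against 8 and 8 in siNC. With the strand setting and the treatment of reads with several matches not given, reads of these genes cannot be told apart, and the value of Gm28901 is uncertain.

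Gm10076 (chr14:105681828-105682211, plus strand) was the other member near a log2 fold change of -1, and it too is a copy. RefSeq calls it a pseudogene, and 383 of its 384 bases match the messenger RNA of Rpl41, a protein of the large ribosomal subunit, at 99.5% identity. The first 60 coding bases of Rpl41 occur in it without a difference:
Gm10076: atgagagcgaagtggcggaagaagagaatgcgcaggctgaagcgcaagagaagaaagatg
Rpl41: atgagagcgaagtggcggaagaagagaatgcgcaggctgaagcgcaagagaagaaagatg
It had 5.62, 12.2 and 25.6 FPKM in the siCXCR4 libraries, against 31.9 and 24.7 FPKM in the siNC libraries. The third siCXCR4 library lay above the lower siNC library, and the highest of the 5 values was 5.67 times the lowest, the widest spread of any member with at least 50 reads on average. The log2 fold change was -1.13 (SE 0.646, 95% interval -2.90 to 0.63; adjusted p = 0.641 by limma), and it was -0.63 without siCXCR4 replicate 1 and -1.64 without siCXCR4 replicate 3. Rpl41 had 137, 147 and 106 FPKM in siCXCR4, against 148 and 138 FPKM in siNC. Its lowest library was siCXCR4 replicate 3, the one in which Gm10076 was highest among the siCXCR4 libraries.

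In all, 9 members had a copy elsewhere of at least 50% of their longest transcript. Among them are Gm36161, covered to 100% by Gm21188 at up to 97.3% identity, and 2900097C17Rik, covered to 51.6% by Gm7292 at up to 99.2% identity. The treatment of reads with several matches is not given, so the levels of these 9 are uncertain. Exon bases were shared with another gene by 27 members, and 74 of 106 had neither a copy nor shared exon bases. Among those 74, an alternative chosen after seeing the data, the median log2 fold change was -0.08. At the unadjusted 0.05 level limma put 8 of them lower and 0 higher, against 3.54% and 5.80% of all genes tested.

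Gdap10 (ENSMUSG00000096954, plus strand, chr12:32821872-32826904) lies within the body of Nampt, the rate-limiting enzyme of the NAD salvage pathway, on the same strand. Gdap10 had 4.65, 5.41 and 6.08 FPKM in siCXCR4, against 6.74 and 8.11 FPKM in siNC, on 507 to 800 reads. Its groups did not overlap, and the log2 fold change was -0.40 (SE 0.114, 95% interval -0.68 to -0.13, adjusted p = 0.494 by limma, 0.178 by edgeR and 0.0617 by DESeq2). Nampt averaged 167.9 ± 2.74 FPKM in siCXCR4 and 169.0 ± 3.75 FPKM in siNC, a log2 fold change of -0.01. The difference between the changes of Gdap10 and Nampt was not tested. Reads of Gdap10 and of unspliced Nampt RNA over the same bases cannot be told apart, and the part of such reads in the level of Gdap10 was not tested.

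Gm43661 had 0.802, 0.826 and 0.836 FPKM in siCXCR4, against 1.52 and 1.33 FPKM in siNC, on 11 to 23 reads per library. Its neighbour Vps37b, a subunit of the ESCRT-I membrane-sorting complex 2.93 kb away, stood the other way, at 20.2 ± 0.485 FPKM in siCXCR4 and 18.7 ± 0.268 FPKM in siNC. Gm26964 averaged 0.946 ± 0.198 FPKM in siCXCR4 and 1.49 ± 0.207 FPKM in siNC, on 13 to 30 reads, and 90.3% of its exon bases lie across from A530017D24Rik, another member, which averaged 1.40 and 1.43 FPKM in siCXCR4 and siNC. Gm26520, 7.98 kb from the kinesin gene Kif3c, had 0.871, 1.56 and 1.10 FPKM in siCXCR4, against 2.01 and 1.68 FPKM in siNC. Of the 12 members with an unadjusted p under 0.05, 7 had fewer than 50 reads per library on average, and in all 12 the groups did not overlap.

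**Figure D4:**
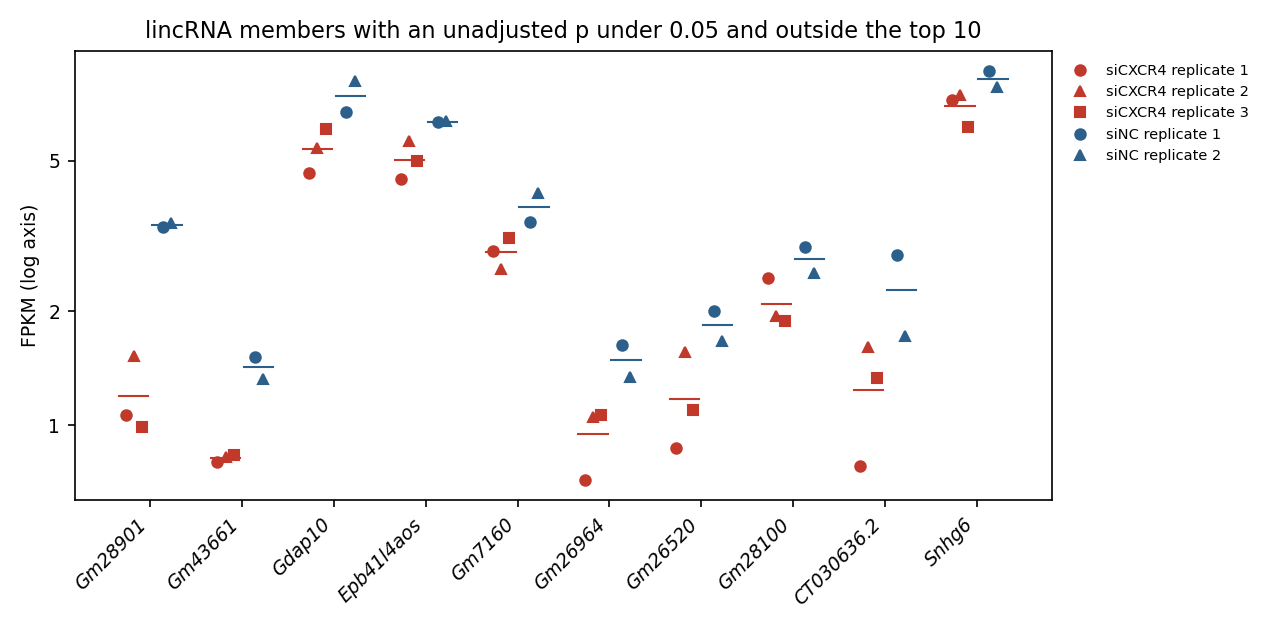
FPKM on a log axis in each library for the 10 members with an unadjusted limma p under 0.05 that are outside the 10 most abundant, in order of p, with siCXCR4 left of siNC; horizontal lines are group means. In each the 3 siCXCR4 points lie below both siNC points, by the widest margin in Gm28901. The members were chosen by p on these same values, and none had an adjusted p under 0.05.

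Gm7160 (ENSMUSG00000099843, minus strand, chr1:105979350-105990282) starts head to head with Zcchc2, a zinc finger protein gene, with 123 bases between the starts of the gene models. This gap, labelled by the genes on its sides, is shown on the strand of Gm7160 (GRCm38.p6, minus strand, chr1:105990283-105990405), since any promoter element in it faces both genes. As written, its left end adjoins Zcchc2 and its right end adjoins Gm7160, so the label does not give the direction. The capitals mark the letters CCAAT, a box found in many promoters:
Gm7160 to Zcchc2: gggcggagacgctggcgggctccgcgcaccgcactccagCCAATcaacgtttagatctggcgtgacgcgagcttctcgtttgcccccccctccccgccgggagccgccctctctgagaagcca
Gm7160 had 2.88, 2.58 and 3.13 FPKM in siCXCR4, against 3.45 and 4.12 FPKM in siNC, with no overlap. Its log2 fold change was -0.31 (SE 0.0924, 95% interval -0.53 to -0.09; adjusted p = 0.494 by limma). Zcchc2 averaged 26.8 ± 0.821 FPKM in siCXCR4 and 25.2 ± 0.215 FPKM in siNC, a log2 fold change of 0.09. Neither passed the test, and the difference between their changes was not tested.

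On the higher side, the 8 members of lowest p had unadjusted limma p-values from 0.0713 up. A230028O05Rik, 67.1 kb from Lpp, a focal adhesion protein gene, had 3.11, 2.46 and 2.71 FPKM in siCXCR4, against 2.08 and 2.43 FPKM in siNC. Zfp469 had 1.27, 1.27 and 1.39 FPKM in siCXCR4, against 0.824 and 1.20 FPKM in siNC, and A930007I19Rik, which runs opposite to the gene body of Ric1, a Golgi trafficking factor, averaged 3.60 ± 0.283 FPKM in siCXCR4 and 3.24 ± 0.117 FPKM in siNC. These 3 were the members in which every siCXCR4 value exceeded every siNC value. Gm39469, Gm49124, Gm42047, Gm49212 and Gm32633 overlapped between groups, with log2 fold changes of 0.30, 0.20, 0.12, 0.32 and 0.12, and Gm49212 rests on 4 to 12 reads per library. Several of these values depended on 1 library. Without siNC replicate 1 the log2 fold change was 0.13 for A230028O05Rik, 0.07 for Zfp469, 0.01 for Gm42047 and -0.01 for Gm32633, and without siNC replicate 2 these were 0.28, 0.34, 0.22 and 0.25. For Gm39469 it was 0.57 without siNC replicate 1 and 0.03 without siNC replicate 2, and for Gm49212 it was 0.57 without siCXCR4 replicate 1 and 0.08 without siCXCR4 replicate 2. For Gm49124 it was 0.31 without siCXCR4 replicate 2 and 0.11 without siCXCR4 replicate 3, and for A930007I19Rik it was 0.07 without siCXCR4 replicate 1.

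Of the snoRNA hosts fixed as a list, 4 are members: Snhg6, Snhg12, Snhg20 and Epb41l4aos. Such genes give rise to snoRNAs, most of which guide chemical modification of ribosomal RNA. Snhg6 had 7.25, 7.47 and 6.15 FPKM in siCXCR4, against 8.62 and 7.83 FPKM in siNC, and Epb41l4aos had 4.48, 5.64 and 4.98 FPKM in siCXCR4, against 6.32 and 6.37 FPKM in siNC. Both had groups that did not overlap, with log2 fold changes of -0.22 and -0.29 and adjusted p-values of 0.528 and 0.494 by limma. Snhg12 averaged 1.47 ± 0.125 and 1.52 ± 0.0906 FPKM in siCXCR4 and siNC, and Snhg20 averaged 1.66 ± 0.114 and 1.77 ± 0.0677 FPKM. By count 0 of 4 passed the test, as did 0 of all 9943 genes, and 4 of 4 were below 0, against 67.0% of all members and 43.6% of all genes. Their median was -0.14, against -0.08 for all members. Another 6 hosts of the same list were tested and are annotated as processed transcripts, not lincRNAs. Of these 0 passed the test, 0 had an unadjusted limma p under 0.05 and 6 were below 0, with a median of -0.02. Of all 44 processed transcripts tested, 33 were below 0, with a median of -0.04. Snhg8 had 63, 66 and 65 reads in siCXCR4, against 81 and 69 reads in siNC, with FPKM values that did not overlap and a log2 fold change of -0.12. Snhg1 averaged 2.28 and 2.53 FPKM in siCXCR4 and siNC, at -0.11. The other hosts lay between -0.03 and -0.004: Gas5 at 5.59 and 5.64 FPKM in siCXCR4 and siNC, Snhg5 at 3.74 and 3.75 FPKM, Snhg15 at 1.54 and 1.62 FPKM, and Zfas1 at 11.5 and 11.6 FPKM.

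Of the list of macrophage and immune lncRNAs, Ptgs2os2, Gm14005 and 2900097C17Rik are members. Ptgs2os2 (lincRNA-Cox2, chr1:150159043-150164948), an LPS-induced regulator of inflammatory genes, had 9.13, 8.31 and 8.41 FPKM in siCXCR4, against 8.36 and 8.92 FPKM in siNC. The groups lay within the same range, and the 95% interval of the log2 fold change ran from -0.15 to 0.14. Ptgs2, the inducible cyclooxygenase gene 50.8 kb away, averaged 294.8 ± 19.98 FPKM in siCXCR4 and 336.5 ± 12.3 FPKM in siNC, a log2 fold change of -0.19 with an adjusted p of 0.512 by limma. Gm14005 (chr2:128178319-128502765), which RefSeq names Morrbid and which in short-lived mouse myeloid cells is known to repress the neighbouring death gene Bcl2l11, had 5.89, 6.35 and 5.003 FPKM in siCXCR4, against 7.44 and 6.19 FPKM in siNC. Bcl2l11, 15.8 kb away, averaged 18.9 ± 1.34 FPKM in siCXCR4 and 16.4 ± 1.90 FPKM in siNC. The log2 fold changes of -0.21 for Gm14005 and 0.19 for Bcl2l11 had opposite signs, but neither passed the test, with adjusted p-values of 0.588 and 0.549 by limma, and the siCXCR4 and siNC values of Gm14005 overlapped. For Gm14005 the log2 fold change was -0.33 without siNC replicate 2, -0.10 without siNC replicate 1 and -0.13 without siCXCR4 replicate 3.

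A few further members were singled out after their values were seen, for what is known of them. AI427809, which RefSeq names Mexis and which is known in mouse macrophages as an LXR-induced amplifier of the cholesterol exporter Abca1, its nearest protein-coding gene at 101.5 kb, averaged 1.26 ± 0.280 FPKM in siCXCR4 and 1.33 ± 0.00841 FPKM in siNC. Gm34643, 22.5 kb from the itaconate enzyme gene Acod1, averaged 12.7 ± 1.48 and 13.2 ± 1.21 FPKM in siCXCR4 and siNC, where Acod1 averaged 2347 and 2424 FPKM. For 1700020I14Rik, which RefSeq names Oip5os1 (Cyrano), a conserved RNA known to destabilise miR-7, the siCXCR4 values of 5.56, 5.95 and 5.76 FPKM all lay below the siNC values of 6.04 and 6.12 FPKM, on 916 to 1107 reads, with a log2 fold change of -0.07.

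The members lay on all 19 autosomes, 13 of them on chromosome 8. The nearest protein-coding gene lay at a median distance of 9.77 kb and at most 209.7 kb. For 46 of the 106 members it lay within 5 kb or overlapped, and for 28 within 1 kb. In 14 members the gene bodies overlapped, 10 of them on opposite strands and 4 on the same strand. For Gm42047, A330074K22Rik, Zfp469 and Gm20735 the overlapping gene was Gm20388, a model listed at 0 FPKM. Its start lies 317389 to 2540481 bases from theirs. Their nearest genes with at least 1 FPKM, Klhdc4, Gse1, Zfpm1 and Mvd, did not overlap them. Of the other 92, 27 were head to head with the neighbour, 20 tail to tail and 45 in the same direction, and within 1 kb 9 of 14 were head to head. The 99 distinct neighbours were more often expressed than other genes: 73 of them (73.7%) had a mean of at least 1 FPKM, against 41.7% of 20825 autosomal protein-coding genes, a difference that was not tested, and the members were themselves chosen for being expressed.

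Besides Gm7160 and Zcchc2, the head-to-head pairs within 1 kb were Gm12474 with Tent5c, Gm17586 with Mafg, 2010320M18Rik with Pik3r2, 4930589L23Rik with Fnip2, 4833445I07Rik with Ndufaf3, Gm36546 with Ctu1, 2010110E17Rik with N4bp1 and A430046D13Rik with Myl6b. Tent5c, a poly(A) polymerase gene, averaged 29.3 FPKM in siCXCR4 and 25.04 FPKM in siNC, a log2 fold change of 0.22, while Gm12474, whose start lies 339 bases from it, had one of 0.02. Fnip2, a partner of the tumour suppressor folliculin, averaged 55.4 FPKM in siCXCR4 and 48.0 FPKM in siNC, a log2 fold change of 0.20, against 0.04 for 4930589L23Rik. For 2010110E17Rik the log2 fold change was -0.19, and for N4bp1, an inhibitor of NF-kB signalling, it was 0.01. Mafg, a small Maf transcription factor, and Gm17586 stood at -0.05 and -0.09. None of these genes passed the test.

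Across the 77 members whose nearest protein-coding gene was itself tested, the log2 fold changes of member and neighbour had a Pearson's r of -0.05 and a Spearman's rank correlation of -0.07, as a description across genes that share the same 5 libraries. For the 33 pairs within 5 kb or overlapping, Pearson's and Spearman's coefficients were both -0.06, and 17 pairs (51.5%) had the same sign. Adjacent tested protein-coding genes within 5 kb, 2317 pairs, gave coefficients of 0.09 and 0.10, with the same sign in 55.2%. Of the 73 distinct neighbours tested, 0 passed the test by limma or edgeR. At an unadjusted limma p under 0.05, 6 were higher and 3 lower, against 5.80% and 3.54% of all genes tested. The neighbours' median log2 fold change was -0.002. The members themselves had a median of -0.08.

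**Figure D5:**
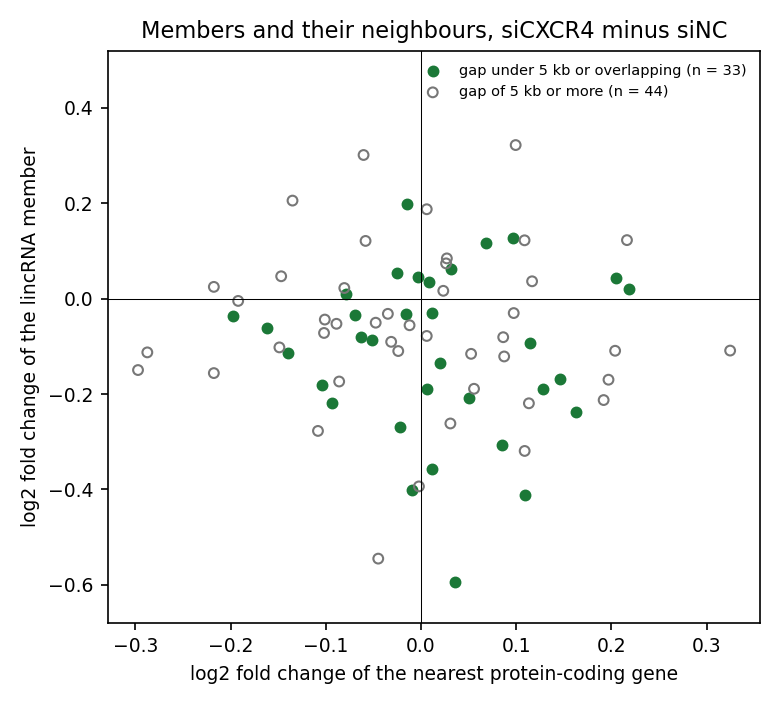
Log2 fold change (siCXCR4 minus siNC) of each member against that of its nearest tested protein-coding gene, with filled points for the 33 pairs within 5 kb or overlapping and open points for the 44 farther apart. The points scatter over all 4 quadrants, more of them below 0 on the vertical axis, with r of -0.05 over all 77.

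Promoter sequences, 250 bases before to 50 after the start in RefSeq, were found for 51 members. A pair of GAAA with any 2 bases between them, on either strand, the core of the interferon-stimulated response element (ISRE) bound by IRF and STAT factors, occurred in 5 of the 51 (9.80%), Gm36161, Ptgs2os2, Gm46224, Gm31718 and Gm26797, and in 3.49% of 27025 promoters. The AP-1 letters TGANTCA occurred in 11.8% of the members' promoters and 7.93% of all, the NF-kB letters (GGGA, any base, T, any 2 bases, CC) in 3.92% and 4.13%, the letters TATAAA in 11.8% and 14.2%, and CCAAT in 37.3% and 37.9%; the letters TGACGTCA and GAGGAAGT were in 0 and 1 of the 51. Both strands were searched for each, and none of these letter sets contains another; a match is a description, not a binding site. The promoter of Ptgs2os2 is shown as the example in a gene known to respond to LPS (GRCm38.p6, minus strand, chr1:150164899-150165198), with the ISRE letters, here on the opposite strand, in capitals:
Ptgs2os2: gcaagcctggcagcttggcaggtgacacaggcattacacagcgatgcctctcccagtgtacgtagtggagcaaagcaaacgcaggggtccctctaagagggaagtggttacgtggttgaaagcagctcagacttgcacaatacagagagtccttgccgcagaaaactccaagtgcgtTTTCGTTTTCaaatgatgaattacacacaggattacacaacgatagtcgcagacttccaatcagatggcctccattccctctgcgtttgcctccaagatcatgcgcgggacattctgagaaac
Of the 5 members with these letters 0 had an adjusted p under 0.05 by limma, as did 0 of all 9943 genes tested.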

How the data were processed

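Total RNA of 6 labelled samples (3 siCXCR4, 3 siNC) was sequenced. Per the file headers each deposited table gives 1 value for each of 54532 genes with its length and position; no unit is named. From the values, 5 tables hold FPKM (reads or fragments per kilobase, scaled to the library total), made by the authors; FPKM and RPKM cannot be told apart here. The deposited values of siNC replicate 3 are whole counts that equalled the reads worked back from siNC replicate 2 in 19072 of 19072 genes, so the pair was counted as 1 library. Whole reads were recovered for 100% of values within a tolerance of 0.05. Of the aligner, counting tool, strand setting and reads with several matches, nothing is given in the sources used here. Per the submitters' processing notes the build was mm9, but 53548 of 54495 shared genes (98.3%) stood at their GRCm38 position, so GRCm38 coordinates are given.

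The comparison used limma 3.58.1 (R 4.3.3), with a variance trend and robust fit, two-sided, on log2(FPKM + 1) values. It took in the 9943 genes that averaged 1 FPKM or more, with Benjamini-Hochberg adjusted p under 0.05 as the threshold. Adding 1 before the logarithm makes a log2 fold change smaller in size than that of the FPKM alone, most for scarce genes. Library totals of 18890751 to 21780840 reads in genes gave 95% intervals for a log2 fold change whose median half-width was 0.17 over all genes and 0.27 over the members. Intervals cover the spread between libraries, and reads carry no molecular identifiers. Alternatives were edgeR 4.0.16 (TMM scaling, quasi-likelihood) and DESeq2 1.42.0 on the recovered reads, other pseudocounts, filters and scalings, a replicate block and each library left out. With 2 siNC libraries, 1 sample remained in that arm when either was left out, and it was assumed to vary like the siCXCR4 group. The design had been planned for count or FPKM tables of 6 libraries. The tests were checked on simulated data. Copies were searched with BLAST+ 2.17.0 in GENCODE vM21 transcripts (at least 95% identity in stretches of at least 50 bases, together covering at least 50% of the longest member transcript). Promoters, miRNAs and alternative names came from RefSeq tables of GRCm38.p6; 51 of 106 members matched a promoter and 70 a gene record.

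Named were the 10 members of highest mean, up to 8 of lowest p in each direction, every member on lists of snoRNA hosts, miRNA hosts and macrophage lncRNAs, and the 3 entries on each side of the abundance threshold. The members, lists and tests were chosen with earlier results of these data known.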

Additional observations from a re-analysis of the deposited data

How the results depend on the processing

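There were 3 siCXCR4 and 2 siNC libraries and a median of 56.7 reads per member. Differences under the median interval half-width of 0.27 on the log2(FPKM + 1) scale could not be resolved for the typical member. Of 106 members, 1 was called with the copied table counted as a separate replicate and 1 without siCXCR4 replicate 2 (0 to 1 over the 5 single left-out libraries), Gm28901 each time; no other alternative called one. Over all genes the calls were 17 by edgeR, 28 by DESeq2 and 6 with the copy, and 0 to 1 with a library left out. Members with an unadjusted p under 0.05 were 12, and 4 by DESeq2, all of them lower in siCXCR4. By limma 5 of the 25 members with a mean of at least 5 FPKM were lower, against 3.47% of all genes at that level. Of the 58 members with at least 50 reads, 5 were lower and 0 higher, against 3.54% and 5.80% of all genes tested, whatever their reads. Without siCXCR4 replicates 1, 2 and 3 in turn, 9, 13 and 14 members were lower, against 2.83%, 6.17% and 2.80% of all genes. Higher were 1, 2 and 0 members, against 3.19%, 7.92% and 4.17%. The members' median of -0.081 was -0.123 by DESeq2 and -0.129 by edgeR. By limma with pseudocounts of 0.1 and 0.01 in place of 1 it was -0.105 and -0.108 (the cause was not tested). With a library left out it was -0.083 to -0.027, lowest in size without siNC replicate 2. It was negative under every alternative run. The median of the snoRNA hosts was -0.252 for the 2 of them with at least 5 FPKM. A protein-coding gene lay within 1 kb of 28 members and within 10 kb of 54.

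Of 513 alternatives for the 31 named members, 501 kept sign and side of the threshold, 2 brought a call and 10 turned the sign. The last were Gm36161 at 0.0011 without siNC replicate 2, 1810058I24Rik at -0.0021 per reads in genes, -0.01 by quantile normalization and -0.05 without siNC replicate 2, Gm32633 at -0.01 and Snhg12 at 0.004 without siNC replicate 1, and Ptgs2os2 at 0.01 with the replicate block, 0.02 and 0.01 without siCXCR4 replicates 2 and 3, and 0.04 without siNC replicate 2; the cause was not tested. With a library left out these ran from -0.22 to 0.0011 for Gm36161, -0.05 to 0.1 for 1810058I24Rik, -0.01 to 0.25 for Gm32633, -0.07 to 0.004 for Snhg12 and -0.05 to 0.04 for Ptgs2os2. With the replicate number as a block, 13 members were lower at an unadjusted p under 0.05, against 2.49% of all genes, and 0 were higher, against 2.53%. With that block 0 members were called, and their median was -0.082. Deviations of same-numbered libraries from their group means had correlations of -0.040 and -0.111 for 2 pairs. With 2 siNC libraries those deviations are equal and opposite in siNC, so these values cannot decide whether the numbers pair samples. The labels do not say that they do, and the main test did not pair them.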
